A study of Mus musculus with 32 samples.

Results

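The 10 genes described here are the 5 perilipins (Plin1 to Plin5) and 5 genes that break down, carry or take in fat (Pnpla2, G0s2, Fabp4, Cd36 and Lpl), out of 55357 genes counted in brain arteries of mice. They were found by matching Ensembl identifiers to these symbols, and all 10 were found. The set was chosen by the level of Plin4, which was lower in both Notch3 mutants, and its values in those comparisons are given as a description with no test. Each of 4 groups held 8 mice with 1 library per mouse. Notch3-/- mice, in which both copies of the gene are inactivated, were compared with Notch3+/+ mice at 3 months. TgNotch3R169C mice, which model CADASIL, an inherited small vessel disease of the brain, were compared with non-transgenic (WT) mice at 12 months. The transgene is an artificial chromosome that overexpresses rat Notch3 with the R169C mutation beside both normal mouse copies and sits on the X chromosome. Both lines were on a C57BL/6 background. The arteries were dissected from the brain in cold buffer and frozen, and polyadenylated RNA was sequenced in stranded libraries. The total count per library ranged from 20289487 to 54481934. Levels are counts scaled to library size (CPM, as edgeR computes it) after TMM, edgeR's correction for library composition.

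Cells store fatty acids as triglyceride in lipid droplets, which perilipins coat. Perilipin 1 belongs to fat cells, perilipins 2 and 3 are found in most cells, perilipin 4 coats newly forming droplets, and perilipin 5 is found in tissues that burn fatty acids. Pnpla2 (adipose triglyceride lipase) takes the first step of triglyceride breakdown, and G0s2 binds and inhibits it. Lpl releases fatty acids from lipoproteins at the vessel lumen, Cd36 helps take them up into endothelial cells and macrophages, and Fabp4 carries them inside fat cells, macrophages and capillary endothelium.

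The promoters of Plin4, whose level chose the set, and of Plin3 and Pnpla2 are shown to give their sequence context. Of all pairs of the 10 genes, only Plin3 and Pnpla2 passed a test of correlation from mouse to mouse. That call was lost in a subset of the libraries, as given below. Each run holds the 250 bases before the start of the gene in RefSeq's GRCm38.p6 table, written 5′ to 3′ on the strand of the gene, with a match to the letters TGGGAA in capitals. The counts were made on mm39, another build. The table lists 9 promoters for 8 of the 10 genes, with 2 for Plin5, and Fabp4 and Lpl are not listed.
Plin4 (chr17:56109783-56110032, minus strand): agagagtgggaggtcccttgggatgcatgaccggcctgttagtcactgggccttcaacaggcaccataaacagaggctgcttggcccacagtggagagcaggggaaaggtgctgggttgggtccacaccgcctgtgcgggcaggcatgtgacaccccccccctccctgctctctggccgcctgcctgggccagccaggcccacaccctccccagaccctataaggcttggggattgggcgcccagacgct
Plin3 (chr17:56290512-56290761, minus strand): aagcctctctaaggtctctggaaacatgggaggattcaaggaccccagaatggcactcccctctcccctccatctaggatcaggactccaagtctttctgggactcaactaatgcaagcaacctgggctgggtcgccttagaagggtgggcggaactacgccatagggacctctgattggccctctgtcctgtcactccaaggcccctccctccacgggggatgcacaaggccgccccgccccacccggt
Pnpla2 (chr7:141454938-141455187, plus strand): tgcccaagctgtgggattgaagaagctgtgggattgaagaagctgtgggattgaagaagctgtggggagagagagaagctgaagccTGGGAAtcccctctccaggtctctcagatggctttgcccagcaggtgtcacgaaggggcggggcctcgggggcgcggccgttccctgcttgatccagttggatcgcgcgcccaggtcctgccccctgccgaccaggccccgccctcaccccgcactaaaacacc
TGGGAA is the core bound by RBPJ, the DNA-binding partner of Notch receptors. It was searched on both strands together with the glucocorticoid receptor letters GNACA and TGTNC spaced by 3 bases, the PPAR repeat of AGGTCA with 1 base between its copies, TATAAA and the CArG box, a motif of smooth muscle promoters. The 250 bases of Plin4 and of Plin3 held none of these letters, and those of Pnpla2 held TGGGAA at -164 from the start. Plin2 held it at -90 on the opposite strand and Cd36 at -43. These 3 of 9 promoters are beside 21.6% of 32851 mouse promoters that held TGGGAA. The other letters searched were in none of the 9 promoters and in 0.387%, 0.0335%, 12.4% and 1.47% of all promoters, in the order above. Near forms of a motif, such as tataag in the run of Plin4, were not counted. At these shares, absence from 9 promoters does not set them apart from all promoters.

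Notch3, the targeted gene, had 65.8 to 98.1 CPM (median 82.7) in Notch3+/+ mice and 13.7 to 18.5 (median 16.4) in Notch3-/- mice. It had 60.1 to 85.0 (median 70.8) in WT mice and 107.9 to 218.7 (median 185.6) in TgNotch3R169C mice, so no library went against its label. In 7 libraries Ttr, the main transcript of choroid plexus, the secretory tissue of the brain ventricles, exceeded 1000 CPM. These were 1 library of Notch3-/- mice, 4 of WT mice and 2 of TgNotch3R169C mice. Xist, which is expressed from the inactive X chromosome of females, exceeded 100 CPM in 4 of the 8 libraries of each group. These were replicates 5 to 8 in every group, while the labels do not give sex.

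**Figure D1:**
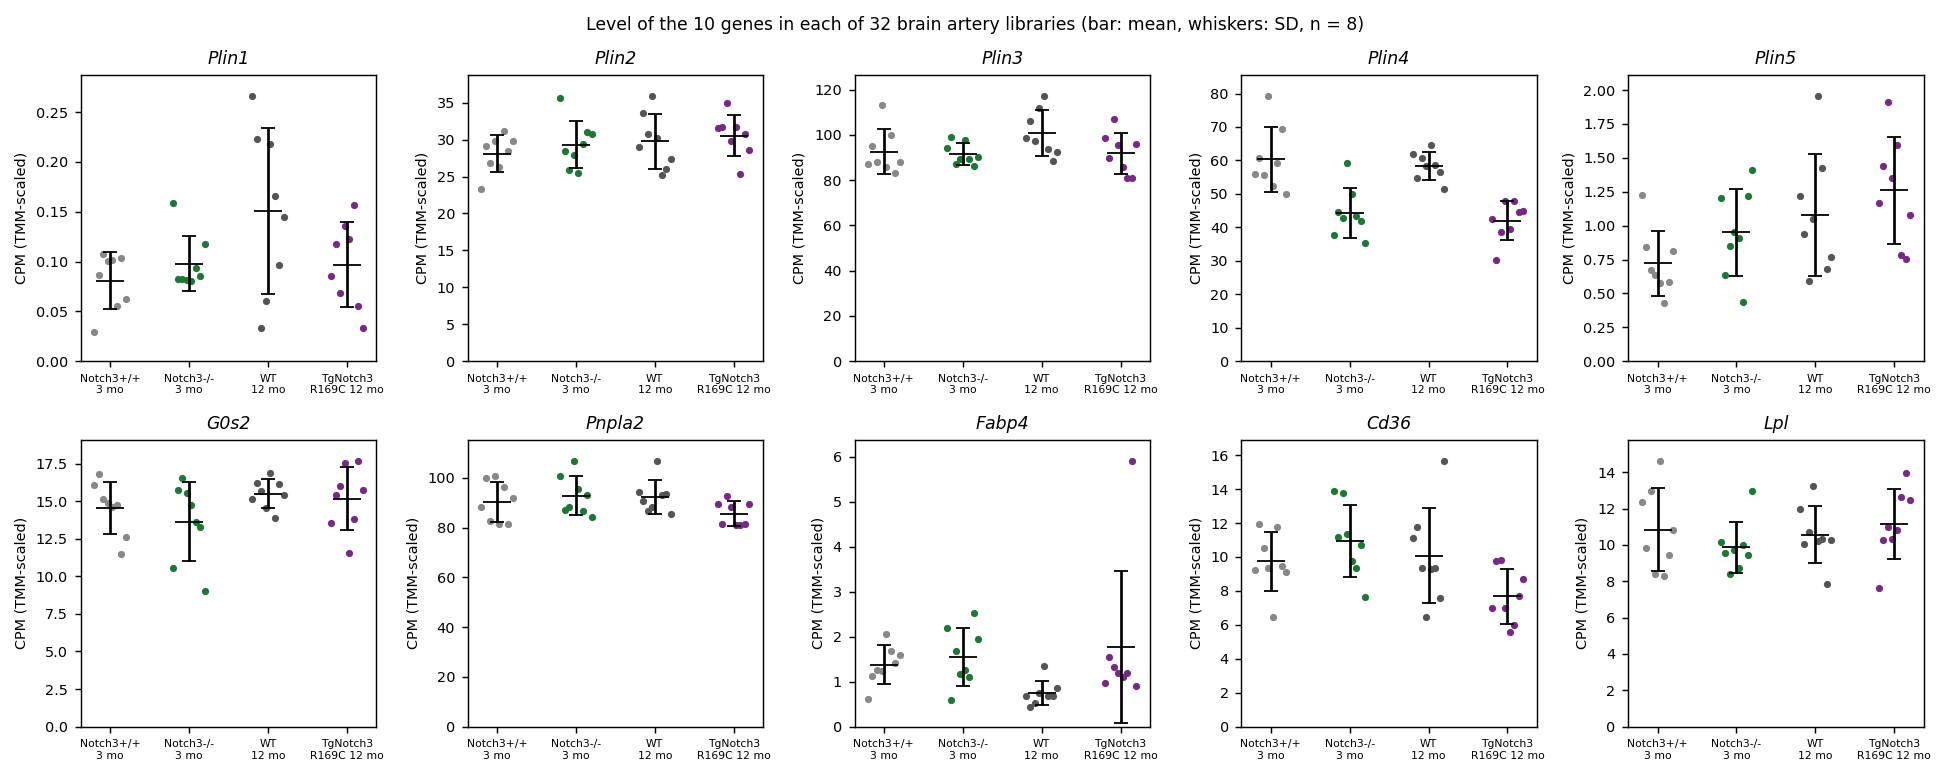
Level of each of the 10 genes in CPM (vertical axes, from 0) in the 4 groups of 8 mice (horizontal axis). Points are libraries, bars are means and whiskers are SD. Plin4 is lower in both mutant groups than in their controls, with all 8 TgNotch3R169C libraries at or below 48.0 CPM and all 8 WT libraries at or above 51.3.

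Plin4 had 50.1 to 79.3 CPM (median 57.6) in Notch3+/+ mice and 35.4 to 59.3 CPM (median 43.1) in Notch3-/- mice. It had 51.3 to 64.5 CPM (median 58.5) in WT mice and 30.2 to 48.0 CPM (median 43.5) in TgNotch3R169C mice. The groups did not overlap in the 12-month comparison. At 3 months 6 of 8 Notch3-/- libraries lay below the lowest Notch3+/+ library and all 8 below the Notch3+/+ mean of 60.3 CPM. The lowest Notch3-/- library, replicate 8 at 35.4 CPM, was the 1 library of that group rich in Ttr. The log2 fold change was -0.44 (SE 0.107, n = 8 per group) in Notch3-/- mice, or -0.39 (SE 0.105) without that library. In TgNotch3R169C mice it was -0.48 (SE 0.0802, n = 8 per group). The changes in both mutants chose the set, so the separation of the libraries is part of the same description. For none of the 10 genes was the share of all genes with such counts of libraries computed. In bulk tissue fewer cells that express a gene and less RNA per cell cannot be told apart. The comparison of the control groups with each other was not used to choose the gene. Between WT mice aged 12 months and Notch3+/+ mice aged 3 months, Plin4 stood at -0.05 on the log2 scale (95% CI -0.23 to 0.12, adjusted p = 0.751). Age and mouse line differ together in that comparison and cannot be told apart, and it shares its libraries with both mutant comparisons. Plin4 shares 17 exonic bases with Hdgfl2, a gene on the opposite strand that was named after its values were seen. Hdgfl2 had log2 fold changes of 0.10 (SE 0.0453) in Notch3-/- mice and -0.04 (SE 0.0373) in TgNotch3R169C mice. Plin3, Plin4, Plin5 and Notch3 all lie on chromosome 17.

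The values of genes of arterial smooth muscle in these comparisons are set beside those of Plin4. In Notch3-/- mice 5 of 8 smooth muscle markers fell (edgeR's quasi-likelihood test, Benjamini-Hochberg adjusted), against 0.452% of all genes called lower. They were Acta2 (-0.63, SE 0.122), Myh11 (-1.04, SE 0.130), Tagln (-0.63, SE 0.126), Cnn1 (-0.79, SE 0.154) and Lmod1 (-0.65, SE 0.134), which encode contractile proteins and their partners. Of the other 3, Smtn was at -0.34 (SE 0.0956) and Myocd at -0.48 (SE 0.235), while Des was on the other side of 0 at 0.28 (SE 0.0905), and none of them passed the test. Without the 7 libraries rich in Ttr 4 of the 8 fell, with Lmod1 no longer called. The median over the 8 markers was -0.63, beside -0.0011 over all genes tested. In TgNotch3R169C mice all 8 were lower, with a median of -0.23. There 0 of the 8 were called by adjusted p, and 3 had an unadjusted p under 0.05, beside 7.27% of all genes. Without the libraries rich in Ttr all 8 were again lower (median -0.20) and 0 were called. Between the control groups all 8 fell (median -0.88), where 4.05% of all genes were called lower. Without the libraries rich in Ttr 6 of the 8 fell (median -0.81). The summed level of the 8 markers ranged from 2080 to 3711 CPM in Notch3+/+ mice, 1431 to 2203 in Notch3-/- mice, 1144 to 1785 in WT mice and 954.3 to 1482 in TgNotch3R169C mice. The part of smooth muscle content in the Plin4 values was not tested.

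**Figure D2:**
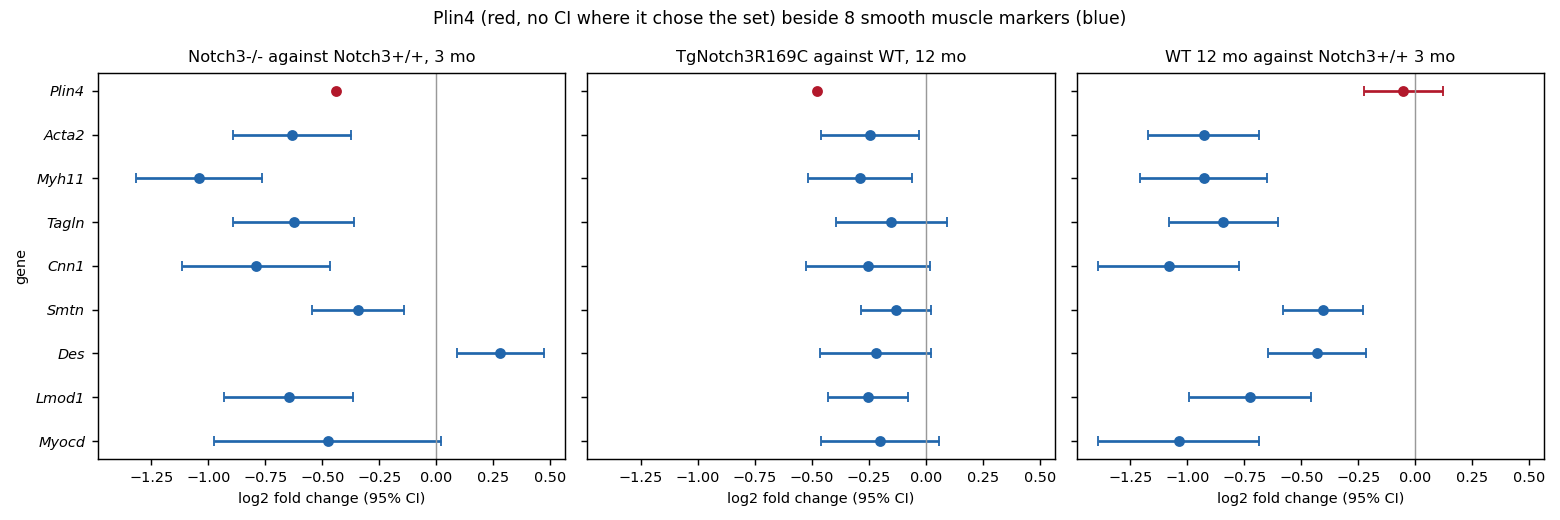
Log2 fold change with 95% CI (horizontal axis) of Plin4 (red) and of 8 smooth muscle markers (blue, vertical axis) in the 3 comparisons of 2 groups, with no CI for Plin4 where it chose the set. Plin4 is at -0.44 in Notch3-/- mice, -0.48 in TgNotch3R169C mice and -0.05 between the control groups. The markers have medians of -0.63, -0.23 and -0.88 in the same order.

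The other perilipins did not show the Plin4 pattern in their values. Plin2 had medians of 28.8 CPM in Notch3+/+ mice (23.3 to 31.1), 28.9 in Notch3-/- mice (25.5 to 35.6), 29.6 in WT mice (25.2 to 35.9) and 31.2 in TgNotch3R169C mice (25.3 to 34.9). All 4 ranges overlapped. Its log2 fold changes were 0.06 (95% CI -0.08 to 0.21) in Notch3-/- mice and 0.03 (95% CI -0.13 to 0.20) in TgNotch3R169C mice. Plin3 had medians of 88.0 CPM in Notch3+/+ mice (83.4 to 113.4), 89.8 in Notch3-/- mice (86.3 to 99.0), 98.1 in WT mice (88.5 to 117.3) and 92.7 in TgNotch3R169C mice (81.0 to 107.0). Its log2 fold changes were -0.01 (95% CI -0.13 to 0.10) in Notch3-/- mice and -0.13 (95% CI -0.28 to 0.01) in TgNotch3R169C mice. In the latter 3 of 8 libraries lay below the lowest WT library. Plin5 was low, with medians of 0.654 CPM in Notch3+/+ mice (0.426 to 1.22), 0.933 in Notch3-/- mice (0.437 to 1.41), 0.992 in WT mice (0.594 to 1.96) and 1.26 in TgNotch3R169C mice (0.752 to 1.91). With 14 to 69 counts per library its intervals were wide. The log2 fold change was 0.40 (95% CI -0.11 to 0.90) in Notch3-/- mice, 0.21 (95% CI -0.32 to 0.74) in TgNotch3R169C mice and 0.58 (95% CI 0.05 to 1.12, adjusted p = 0.163) between the control groups. Plin1 had 1 to 10 counts in every library and was removed by the filter on low counts, so a difference was not detectable at this depth.

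No difference passed the test for the lipase Pnpla2 or its inhibitor G0s2. Pnpla2 had medians of 90.0 CPM in Notch3+/+ mice (81.4 to 100.7), 90.8 in Notch3-/- mice (84.1 to 106.8), 91.9 in WT mice (85.6 to 106.8) and 84.9 in TgNotch3R169C mice (80.9 to 92.9). In TgNotch3R169C mice 4 of 8 libraries lay below the lowest WT library. Its log2 fold change there was -0.11 (SE 0.0480, unadjusted p = 0.0363, adjusted p = 0.679), which did not pass the test. G0s2 had medians of 14.8 CPM in Notch3+/+ mice (11.5 to 16.9), 14.2 in Notch3-/- mice (9.03 to 16.6), 15.6 in WT mice (13.9 to 16.9) and 15.6 in TgNotch3R169C mice (11.6 to 17.7). All of these ranges overlapped, and the log2 fold changes lay between -0.09 and 0.09. The ratio of G0s2 to Pnpla2 counts within a library, inhibitor over lipase, is free of library size. On the log2 scale it was -2.63 ± 0.172 (SD, n = 8) in Notch3+/+ mice, -2.79 ± 0.310 in Notch3-/- mice, -2.57 ± 0.103 in WT mice and -2.51 ± 0.198 in TgNotch3R169C mice. It differed by -0.15 in Notch3-/- mice (exact two-sided permutation test, p = 0.250) and by 0.07 in TgNotch3R169C mice (exact p = 0.418). Between the control groups it differed by 0.06 (exact p = 0.382), and over the 3 comparisons each adjusted p was 0.418.

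Among the genes of fatty acid uptake and transport, Fabp4 showed the widest spread. It had 0.612 to 2.07 CPM (median 1.34) in Notch3+/+ mice and 0.580 to 2.52 (median 1.47) in Notch3-/- mice. It had 0.445 to 1.34 (median 0.684) in WT mice and 0.907 to 5.90 (median 1.19) in TgNotch3R169C mice. The WT group at 12 months thus had the lowest median of the 4, with 14 to 37 counts per library, all 8 below the Notch3+/+ mean and 2 below its range. Fabp4 fell between the control groups by 0.89 on the log2 scale (95% CI -1.39 to -0.39, adjusted p = 0.0302), in a comparison where 4.05% of all genes were called lower. The call was lost without the 7 libraries rich in Ttr (a fold of 0.498, adjusted p = 0.0853, against a fold of 0.539 with them), with the choroid plexus markers as a covariate (-1.06, adjusted p = 0.101) and with all 4 groups in one fit (-0.89, adjusted p = 0.109). It was also lost without Notch3+/+ replicate 5, 6, 7 or 8 and without WT replicate 2, 3 or 6, each left out alone (adjusted p = 0.0512 to 0.0588). In TgNotch3R169C mice, which were compared with the same WT libraries, Fabp4 stood at 1.26 on the log2 scale (SE 0.391, unadjusted p = 0.00516, adjusted p = 0.520) and did not pass the test. All 8 libraries lay above the WT mean. The value rested in part on replicate 7 at 5.90 CPM, where the next library had 1.55, and was 0.67 without it. In Notch3-/- mice the log2 fold change was 0.18 (95% CI -0.39 to 0.75).

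Cd36 had 6.48 to 11.9 CPM (median 9.42) in Notch3+/+ mice, 7.63 to 13.9 (median 10.9) in Notch3-/- mice, 6.48 to 15.7 (median 9.36) in WT mice and 5.60 to 9.84 (median 7.33) in TgNotch3R169C mice. All 8 TgNotch3R169C libraries lay below the WT mean and 2 below the WT range. The log2 fold change was -0.39 (SE 0.168, unadjusted p = 0.0342, adjusted p = 0.679) in TgNotch3R169C mice and 0.17 (SE 0.132, adjusted p = 0.871) in Notch3-/- mice. The difference between these changes was -0.56 (SE 0.217, adjusted p = 0.432). Cd36 did not pass the test in either mutant or for the difference. Lpl had medians of 10.3 CPM in Notch3+/+ mice (8.28 to 14.6), 9.61 in Notch3-/- mice (8.40 to 13.0), 10.3 in WT mice (7.83 to 13.2) and 10.9 in TgNotch3R169C mice (7.63 to 14.0). Its log2 fold changes were -0.13 (95% CI -0.39 to 0.12), 0.07 (95% CI -0.17 to 0.32) and -0.04 (95% CI -0.31 to 0.23) in Notch3-/- mice, TgNotch3R169C mice and between the control groups.

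**Figure D3:**
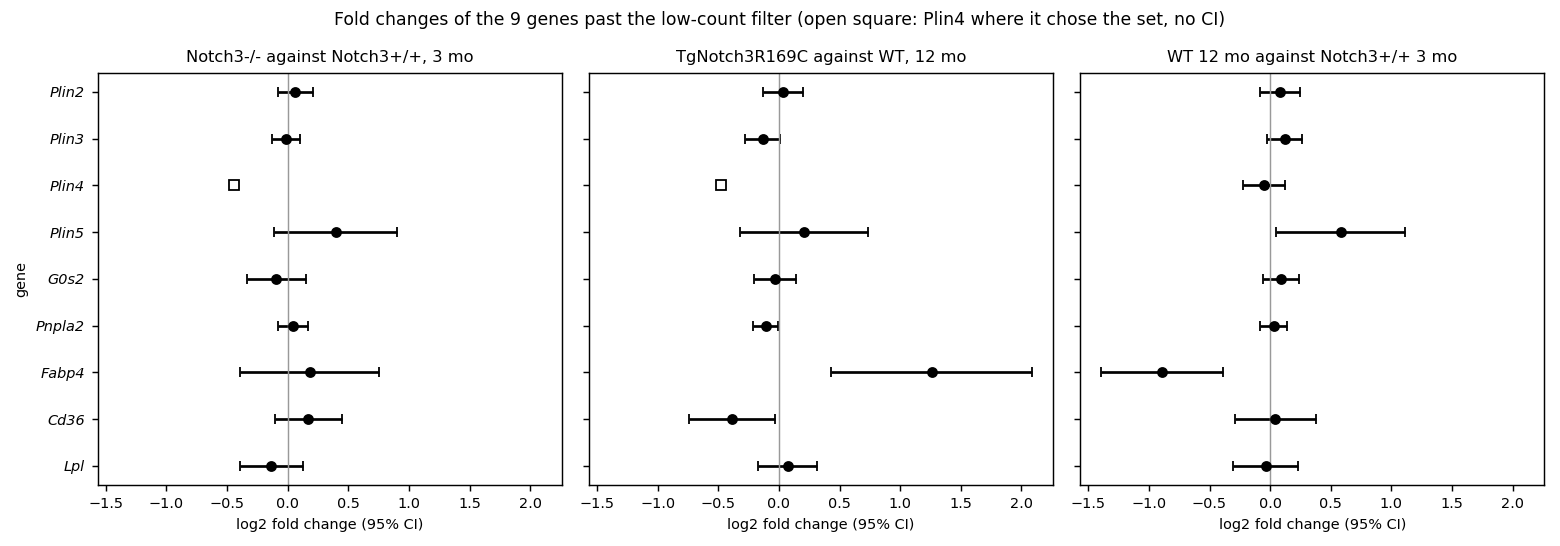
Log2 fold change with 95% CI (horizontal axis) of the 9 genes past the filter on low counts (vertical axis) in the 3 comparisons of 2 groups, n = 8 per group. Open squares mark Plin4, with no CI, in the comparisons that chose the set. Fabp4 is at -0.89 between the control groups and at 1.26 in TgNotch3R169C mice, with the widest intervals beside those of Plin5.

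Of the 10 genes, 9 passed the filter on low counts in each comparison. Plin4, which chose the set, was left out of the counts for the mutants and their difference. Of the other 8, 0 were called in Notch3-/- mice by edgeR's quasi-likelihood test at an adjusted p below 0.05. There 0.649% of 17714 genes were called, and 0 of the 8 had an unadjusted p under 0.05. In TgNotch3R169C mice 0 of 8 were called, where 0.113% of 17731 genes were called, and 3 (Fabp4, Cd36 and Pnpla2) had an unadjusted p under 0.05, beside 7.27% of all genes. DESeq2 also called 0 in both comparisons. Between the control groups 1 of 9, Fabp4, was called, where 7.92% of 17643 genes were called. For the difference between the mutants' changes 0 of 8 were called by edgeR and by DESeq2, where 0.35% of 18555 genes were called, and 2 (Cd36 and Fabp4) had an unadjusted p under 0.05, beside 8.62% of all genes. Given shares this low, a count of 0 among 8 genes does not set them apart from all genes. The median log2 fold change of the 8 genes was 0.05 in Notch3-/- mice, 0.00 in TgNotch3R169C mice and 0.06 between the control groups.

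The order of the levels was compared per kilobase of the principal transcript in GENCODE vM21, an annotation of another build. In Notch3+/+ mice Pnpla2 was at 50.2 ± 4.50 CPM per kilobase (SD, n = 8), Plin3 at 25.4 ± 2.74, G0s2 at 16.7 ± 2.01, Plin2 at 14.9 ± 1.34 and Plin4 at 10.5 ± 1.68. Cd36 followed at 2.86 ± 0.511, Lpl at 2.63 ± 0.556, Fabp4 at 1.53 ± 0.482, Plin5 at 0.363 ± 0.122 and Plin1 at 0.0287 ± 0.0101. The lipase Pnpla2 and the widely expressed coat gene Plin3 thus led, and Plin1, the coat gene of fat cells, was last. G0s2 and Plin2, and Cd36 and Lpl, lay within their spread of each other on this length. The order was the same in the other groups, except that Lpl (2.71) stood above Cd36 (2.26) in TgNotch3R169C mice. With the length of all exons instead, Plin4 stood above Plin2 in both control groups and below it in both mutants, and Plin5 above Fabp4 in all 4. Cd36 then stood above Lpl in all 4 groups, at 2.71 against 1.03 in Notch3+/+ mice and 2.14 against 1.06 in TgNotch3R169C mice. In Notch3-/- mice Plin4 was at 7.72 ± 1.29 and in TgNotch3R169C mice at 7.30 ± 1.02 CPM per kilobase, against 10.1 ± 0.719 in WT mice.

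Of 8 fat cell markers, Lep, Adipoq, Cidec, Retn and Cfd were at or near 0. The others were not, with 515 to 1650 counts in a library for Lipe, 253 to 734 for Slc36a2 and 4 to 83 for Adrb3. Lep had 0 counts in all 32 libraries, Adipoq at most 4, Cidec at most 5, Retn at most 7 and Cfd at most 8 counts in a library. The summed level of the 8 fat cell markers ranged from 37.8 to 49.8 CPM in Notch3+/+ mice, 40.0 to 54.5 in Notch3-/- mice, 40.1 to 60.2 in WT mice and 42.5 to 63.9 in TgNotch3R169C mice. Nearly all of it came from Lipe, hormone-sensitive lipase, and from Slc36a2, an amino acid transporter, and none of the 3 of 8 markers past the filter was called in any comparison. Among 4 brown fat markers Ucp1 had at most 10 counts and Elovl3 at most 17, while Cidea had 68 to 239 counts in a library. Dio2, which converts thyroid hormone to its active form and is also made by astrocytes, rose in TgNotch3R169C mice (log2 fold change 0.99, SE 0.116, adjusted p = 0.000819), and its change differed from that in Notch3-/- mice (1.43, SE 0.209, adjusted p = 0.000229). Without the libraries rich in Ttr the rise did not pass the test (0.95, SE 0.141, adjusted p = 0.0902) and the difference did (1.37, SE 0.265, adjusted p = 0.0240).

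The remaining marker lists (endothelium, pericyte, fibroblast, macrophage, choroid plexus, neuron, astrocyte, oligodendrocyte, red cell and skeletal muscle) had 1 gene called in Notch3-/- mice, Kcnj8 (higher, 0.46, SE 0.0799), and none called in TgNotch3R169C mice. Of all genes, 0.649% and 0.113% were called there. Whole lists lay to one side of 0 without such calls. In Notch3-/- mice 8 of 8 choroid plexus markers were higher (median 2.80, 7 with an unadjusted p under 0.05), or 8 of 8 lower without the libraries rich in Ttr (median -0.50), and 6 of 6 oligodendrocyte markers were higher (median 0.46). In TgNotch3R169C mice 8 of 8 neuron (median 0.53) and 7 of 7 astrocyte markers (median 0.17) were higher and 8 of 8 choroid plexus markers lower (median -1.07), with medians of 0.12, 0.07 and -0.07 without those libraries. For the difference between the mutants' changes Myh11, of the smooth muscle list, was called beside Dio2, and was not called without the libraries rich in Ttr (adjusted p = 0.143). Between the control groups 12 of 81 marker genes tested rose and 13 fell, where 7.92% of all genes were called and 4.05% were called lower. The 12 that rose were 7 of choroid plexus (Ttr, Folr1, Aqp1, Otx2, Clic6, Kcne2 and Enpp2), 2 of myelin (Mag and Cnp), Kcnj8, Abcc9 and Aldh1l1. Beside the 8 smooth muscle genes, Smtn, Des and Myocd among them, Pecam1, Col1a1, Col1a2, Mrc1 and Gja1 fell. Without the libraries rich in Ttr 2 rose and 11 fell, with no choroid plexus or myelin gene among those that rose. There 402 genes were called over the whole table. Beside the lower Fabp4 in this comparison, 1 of 8 endothelial markers (Pecam1, -0.52, SE 0.0890) fell and the list had a median of -0.15, with summed levels of 1532 to 2072 CPM in Notch3+/+ mice and 1447 to 1717 in WT mice. Of 8 macrophage markers 1 fell (Mrc1, -0.31, SE 0.0833), 5 were higher and 3 lower, and the median was 0.01, with summed levels of 649.9 to 989.9 and 705.1 to 870.3 CPM. Their part in the Fabp4 value was not tested.

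Related genes were described by 4 lists. Of 14 tested partners of lipid droplets and lipolysis, 0 were called in any comparison. The median log2 fold changes were 0.01 in Notch3-/- mice, -0.06 in TgNotch3R169C mice and 0.06 between the control groups, beside medians of -0.0011, -0.0074 and 0.0026 over all genes. The values farthest from 0 were those of the lipase Pnpla3 in Notch3-/- mice (-0.19, SE 0.192) and of Acsl3 in TgNotch3R169C mice (0.39, SE 0.0753, adjusted p = 0.0647). Between the control groups it was that of Cidea (0.35, SE 0.178), a droplet protein. Acsl3, which activates fatty acids on forming droplets, was nearest to the threshold. Of 12 tested genes of fatty acid uptake and lipoprotein lipolysis, 0 were called in the mutants. Fabp3, a fatty acid carrier of muscle and brain, was farthest from 0 in all 3 comparisons, at 0.52 (SE 0.424) in Notch3-/- mice and -0.52 (SE 0.424) in TgNotch3R169C mice, and it rose between the control groups, close to the threshold (1.20, SE 0.354, adjusted p = 0.0479). These values rested on the libraries rich in Ttr. Fabp3 had 4.12 to 9.75 CPM in the 4 such WT libraries and 1.98 to 2.55 in the other 4, against 0.936 to 3.83 in Notch3+/+ mice. It had 10.8 CPM in the 1 such library of Notch3-/- mice and 7.68 and 6.68 in the 2 of TgNotch3R169C mice. Without them its log2 fold changes were -0.17 (SE 0.228), -0.24 (SE 0.159) and 0.20 (SE 0.289, adjusted p = 0.739), and none passed the test. The list medians were 0.01, -0.01 and 0.05.

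PPAR receptors are nuclear receptors for fatty acids, and Plin2, Plin4, Plin5, Fabp4, Cd36 and Lpl are known targets of them. Of 15 other PPAR receptor and target genes, 0 were called in any comparison, with 1, 3 and 1 at an unadjusted p under 0.05, beside 7.69%, 7.27% and 24.2% of all genes. The list medians were 0.03 in Notch3-/- mice, -0.10 in TgNotch3R169C mice and 0.02 between the control groups. Pparg itself was farthest from 0 in Notch3-/- mice (-0.48, SE 0.275, adjusted p = 0.769). The mitochondrial carrier Ucp3 was farthest from 0 in TgNotch3R169C mice (-0.44, SE 0.296) and between the control groups (0.67, SE 0.321). Of 12 genes of the glucocorticoid response, 0 were called in any comparison, with medians of 0.04, 0.00 and -0.16. Zbtb16 (0.53, SE 0.457), Sgk1 (-0.24, SE 0.158) and Tsc22d3 (-0.35, SE 0.147) were farthest from 0 in the 3 comparisons. The 3 comparisons share control libraries.

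**Figure D4:**
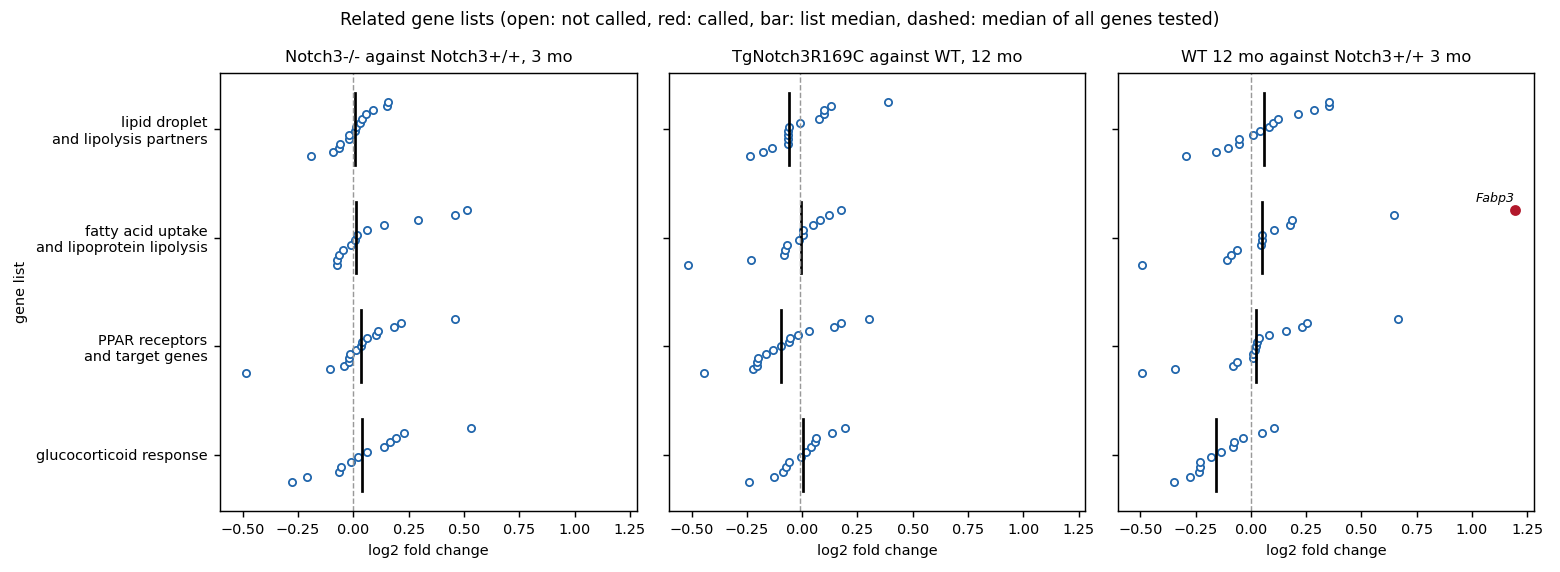
Log2 fold change (horizontal axis) of each tested gene in 4 lists related to lipid droplets (vertical axis) in the 3 comparisons of 2 groups. Red points passed the test, bars are list medians and dashed lines the median of all genes. The red point is Fabp3 at 1.20, between the control groups, which was at 0.20 without the libraries rich in Ttr.

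The genes were next compared from mouse to mouse within groups, as deviations of log2 CPM from the group mean over 32 libraries, which removes the group differences. Of 45 pairs, 1 passed an adjusted p of 0.05 by permutation within groups. The genes share libraries and depth, which this test does not take out. The share of all gene pairs that would pass was not computed. Plin3 and Pnpla2 varied together with r = 0.59 (permutation p = 0.00041, adjusted p = 0.0185) and rho = 0.58 (permutation p = 0.0009, adjusted p = 0.0405). Without the 2 libraries farthest from the median of Plin3, r was 0.51. Within the groups r was 0.83 in Notch3+/+ mice, 0.05 in Notch3-/- mice, 0.46 in WT mice and 0.93 in TgNotch3R169C mice, each over 8 libraries. Without the 7 libraries rich in Ttr r was 0.61, with an adjusted p of 0.102. The next pair was Plin2 and Plin3 (r = 0.51, adjusted p = 0.0877). Plin4 varied most closely with Pnpla2 (r = 0.42) and G0s2 (r = 0.34) among the other 9 genes, and neither pair passed the test.

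**Figure D5:**
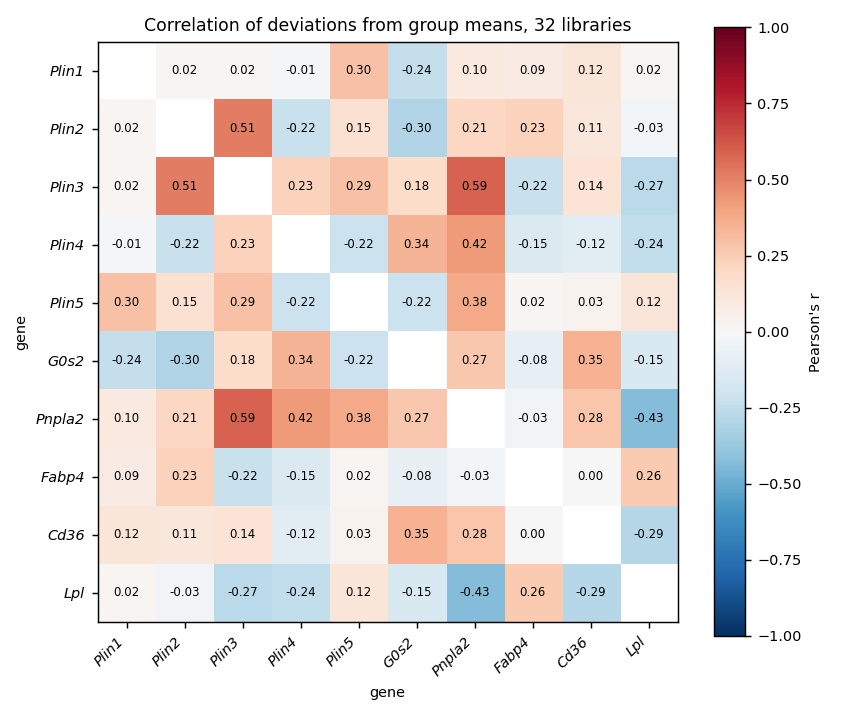
Pearson's r between deviations from the group mean of log2 CPM for each pair of the 10 genes (both axes) over 32 libraries, with red for positive and blue for negative values. The highest value is 0.59, for Plin3 and Pnpla2.

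Among 18554 other genes, the 5 whose deviations were most like those of Plin4 were Sult1a1 (r = 0.74), Stim1 (r = 0.67), 0610043K17Rik (r = 0.67), Bdkrb2 (r = 0.66) and Rfng (r = 0.66). Sult1a1 is a sulfotransferase, Stim1 a calcium sensor of the endoplasmic reticulum, Bdkrb2 the bradykinin receptor B2 and Rfng a glycosyltransferase of Notch receptors. They share libraries and depth with Plin4, so these values are a description. Without the 7 libraries rich in Ttr they were 0.71, 0.75, 0.63, 0.68 and 0.66. None of the 5 was called in either mutant, with log2 fold changes from -0.20 to 0.08 in Notch3-/- mice and from -0.19 to -0.02 in TgNotch3R169C mice. Sult1a1 fell between the control groups (-0.36, SE 0.0811, adjusted p = 0.0131).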

How the data were processed

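RNA sequencing was analysed for 32 libraries of mouse brain arteries, 1 per mouse and 8 per group. The deposited table holds whole-number counts of reads for each Ensembl gene, which the authors did not normalize. The submitters' processing notes name mm39, bcl2fastq 2.20.0.422, cutadapt 1.10, Bowtie2 2.2.8, STAR 2.5.3a and HTSeq 0.6.1p1, and the annotation release is not given in the sources used here. Whether strand was used in counting is likewise not given, so reads of overlapping antisense genes may be shared.

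Counts were analysed with edgeR 4.0.16 in R 4.3.3. Genes were filtered with filterByExpr (minimum count 10), normalized by TMM and tested by the quasi-likelihood test in a fit of the 2 groups compared, or of all 4 for the difference between mutants, with Benjamini-Hochberg adjustment over all genes tested and calls at an adjusted p below 0.05. Correlations used log2 of CPM + 0.5 and 100000 permutations within groups, and ratios an exact permutation test, in Python 3.11.15 with scipy 1.17.1. The scripts were tested on simulated data. DESeq2 1.42.0 was an alternative.

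The 10 genes and the lists were chosen with earlier results of these data known. The lists were 4 of related genes and 13 of cell type markers. Named list genes were those called in any comparison and, for the related lists, the gene with the largest change in each, with the 5 genes most like Plin4. The labels give each mouse as a separate sample. Of the lists, 2 genes are not reported here.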

Additional observations from a re-analysis of the deposited data

Results flagged for a closer look

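The 8 libraries of each group were examined for a library apart from the rest, by the gap to its neighbour as a share of the range of the group (limit 0.526 for 8). Over 40 groups of 10 genes, 5 passed the limit, where about 2 would if values were normal and independent. The genes share libraries and Plin1 had few counts, so that number is only a rough guide. Fabp4 in TgNotch3R169C mice had a gap of 0.870 of the range, with replicate 7 at 5.90 CPM and the next library at 1.55. Fabp4 in WT mice had a gap of 0.529, with replicate 5 at 1.34 CPM and the next at 0.867. Lpl in Notch3-/- mice had a gap of 0.612, with replicate 8 at 13.0 CPM. Pnpla2 in WT mice had a gap of 0.589, with replicate 5 at 106.8 CPM. Plin1 in Notch3-/- mice had a gap of 0.527, with replicate 1 at 5 counts. Notch3-/- replicate 8 and WT replicate 5 were among the libraries rich in Ttr, while Notch3-/- replicate 1 and TgNotch3R169C replicate 7 were not. No cause was tested for any of them.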

How the results depend on the processing

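Over 26 alternatives per comparison the log2 fold change of Plin4 was -0.50 to -0.37 in Notch3-/- mice and -0.51 to -0.42 in TgNotch3R169C mice. These are the values that chose the set, so their ranges are a description and no support for the fall. The difference between these changes, -0.03 in the fit of all 4 groups, was -0.10 to 0.034 on leaving out single libraries. It turned to 0.034 without Notch3-/- replicate 4 and to 0.025 without TgNotch3R169C replicate 2. Plin4 was given no test in either mutant or for the difference. Of the rest of the 10 genes, none was called there under any alternative.

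The fall of Fabp4 between the control groups kept its direction in 26 of 26 alternatives (-1.07 to -0.79, adjusted p 0.00879 to 0.109) and passed the test in 16. The number of the 10 genes called there went to 0 with all 4 groups in one fit, with the choroid plexus list as a covariate, and without the 7 libraries rich in Ttr, an alternative chosen after seeing the data. Leaving out single libraries gave 0 to 1, with 0 without Notch3+/+ replicate 5, 6, 7 or 8 or WT replicate 2, 3 or 6. Without those Ttr-rich libraries 0 pairs of the 10 genes passed the test of correlation.

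Over the whole table edgeR called 115 genes in Notch3-/- mice, 20 in TgNotch3R169C mice, 1398 between the control groups and 65 for the difference. DESeq2 called 278, 79, 2266 and 155. All 4 groups in one fit gave 174 in Notch3-/- mice. The choroid plexus covariate gave 298 between the control groups. Without the Ttr-rich libraries the numbers were 2 in TgNotch3R169C mice, 402 between the control groups and 39 for the difference. Leaving out single libraries gave 78 to 141, 11 to 26, 895 to 1621 and 53 to 94, lowest in TgNotch3R169C mice without WT replicate 3 or 4 and between the control groups without Notch3+/+ replicate 7. The difference between groups in the log2 ratio of G0s2 to Pnpla2 then ranged from -0.21 to -0.09 in Notch3-/- mice. It was 0.02 to 0.11 in TgNotch3R169C mice and 0.03 to 0.09 between the control groups. The causes were not tested.

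Replicate numbers are shared between groups, and replicates 5 to 8 were those high in Xist in each group. The libraries that a number joins did not all deviate together. Their correlations were -0.19 to 0.39 in the 3-month pair of groups and -0.30 to 0.45 in the 12-month pair. In each pair of groups 4 of 8 were above 0.1, and 2 of 8 and 1 of 8 libraries were closest to their own number. A fit with the replicate block called 97, 6, 715 and 63 genes and changed no call among the 10 genes. Depth limited Plin1, Plin5 and Fabp4, with 1 to 10, 14 to 69 and 14 to 212 counts per library.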
